A study of Mus musculus with 4 samples.

Results

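Foxp3-positive regulatory T cells of the mouse lung were examined in 4 single-cell RNA libraries of sorted immune cells. The cells were selected on their own measured counts of unique molecular identifiers (UMIs, each standing for 1 captured RNA molecule): at least 1 UMI of Foxp3, at least 1 of Cd3e, Cd3d or Cd3g, and none of Cd8a, Cd8b1 or Cd79a, among barcodes in which over 200 genes were detected and mitochondrial UMIs stayed below 15%. Of 27544 cells kept, 289 met this rule: the DPBS libraries gave 58 (WT) and 34 (KO), the papain libraries 144 (WT) and 53 (KO). Where 4 values are listed below without names, they follow this library order.

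All mice were C57BL/6 and carried floxed alleles of Ift20. The WT groups were Ift20 f/f without Cre, and the KO groups were Ift20 f/f CD4 cre, in which the Cd4 promoter drives Cre from the double-positive stage of the thymus onwards, so that CD8 T cells and regulatory T cells lose the gene along with other CD4 T cells. Papain, a cysteine protease used as an inhaled allergen, was given into the nose at 25 µg on 3 days in a row and again on day 14, and lungs were taken on day 15. Controls were given DPBS, which is phosphate-buffered saline. The study's methods describe its mice as males of 5 to 10 weeks. Live CD45.2+ cells were sorted and 1 library was made per group with 10x Genomics 3′ v3 chemistry, and the number of mice behind a library was not given in the sources used here. With 1 library per group no difference between groups has a replicate check. Differences between libraries are therefore given with intervals that cover counting error only, and no p-value is attached to them.

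Foxp3 (chromosome X, 7573644 to 7595245, plus strand, GRCm38) encodes the transcription factor that defines regulatory T cells. These cells restrain other T cells through surface receptors such as CTLA-4, through consumption of interleukin-2 (IL-2) by the high-affinity receptor that contains CD25, and through secreted factors such as IL-10. In barrier tissues such as the lung, a part of them carries ST2, the IL-33 receptor encoded by Il1rl1, together with KLRG1 and the repair factor amphiregulin (Areg), whereas others keep CCR7, a chemokine receptor with which T cells enter lymph nodes. IFT20 is a small subunit of the intraflagellar transport machinery. It works in the assembly of cilia and, in T cells, which have none, in the traffic of vesicles to the immune synapse.

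The 289 cells held 2820614 UMIs, and the median cell held 6815, 6814, 6967.5 and 6258 UMIs. Foxp3 itself was sparse. Exactly 1 Foxp3 UMI, the lowest value that the rule admits, was found in 29, 8, 36 and 16 cells, 89 in all, while 63 cells held 2, 137 held 3 or more, and the highest count was 17. A Cd4 UMI was not required and was present in 65.1% of the cells. Just outside the rule lay 178 further kept cells with a Foxp3 UMI, of which 77 also held a Cd8a or Cd8b1 UMI, 77 held a Cd79a UMI, and 24 had no CD3 UMI. No barcode was shared between libraries among the regulatory T cells, and 6 to 14 were shared between pairs of libraries among all kept cells.

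The label could be checked with genes that had not been used to select the cells. Ctla4 UMIs were present in 86.2%, 76.5%, 87.5% and 71.7% of cells. Ikzf2, which encodes Helios, was present in 65.5%, 70.6%, 83.3% and 69.8%. After each cell was thinned to 2000 UMIs, Ctla4 remained in 48.5% to 66.0% of these cells against 4.76% to 12.4% of Foxp3-negative CD4 T cells, and Ikzf2 in 47.2% to 66.7% against 2.91% to 6.09%. Both genes separated the populations in each library. B cells, which should lack Foxp3, held a Foxp3 UMI in 0, 1, 5 and 1 cells of 2514, 1638, 2394 and 1910. The share was at most 0.209%, in Papain WT, and the count of 0 in DPBS WT allows a share of up to 0.119%. The median B cell held 4031 to 4960 UMIs.

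RNA of genes known from other cell types was present among the cells. At least 10 UMIs of Lyz2, the lysozyme gene of macrophages and neutrophils, were found in 10 regulatory T cells (2, 2, 6 and 0 by library). These cells held 639 of 681, 799 of 828 and 1159 of 1277 Lyz2 UMIs in the first 3 libraries. The summed level of 6 myeloid markers was 1890, 3434, 1229 and 110 counts scaled to a common library total (CPM, parts per 1000000 UMIs), and it was 134, 169, 185 and 110 CPM without the 10 cells. The 6 alveolar macrophage markers went from 1730, 1179, 1790 and 120 CPM to 123, 162, 227 and 120 CPM. The 6 B cell markers, which include Cd74, summed to 877, 754, 996 and 1222 CPM, highest in Papain KO. They were at 952, 752, 890 and 1222 CPM without the 10 cells. Neutrophil and natural killer (NK) cell markers stood out in Papain WT and did not drop with the 10 cells. Neutrophil markers reached 246 CPM there and 12.4 to 21.9 CPM in the other libraries, and NK cell markers reached 103 CPM against 0 to 29.0 CPM. Genes with these patterns are therefore given below with and without the Lyz2-rich cells.

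Ift20 (chromosome 11, 78536361 to 78541737, plus strand) was the targeted gene. Regulatory T cells held 44, 4, 124 and 8 Ift20 UMIs, which is 91.2, 12.5, 79.4 and 17.5 CPM. The 2 KO libraries were thus low and the 2 WT libraries high, with intervals that did not overlap. KO over WT gave a log2 ratio of -2.87 (95% counting interval -4.80 to -1.41) after DPBS and -2.18 (-3.42 to -1.16) after papain. In Foxp3-negative CD4 T cells the ratios were -1.17 and -1.51, in CD8 T cells -1.39 and -1.63, and in B cells, which do not use the Cd4 promoter, -0.37 (-0.55 to -0.19) and 0.11 (-0.03 to 0.26). The B cell interval after DPBS thus lay below 0. Cre removes exons 2 and 3, whereas 3′ chemistry reads the far end of the transcript. A UMI can therefore come from a deleted allele, and the remaining UMIs do not measure how complete the deletion was. Of 16 genes on the list of intraflagellar transport subunits and of the vesicle-sorting complex, 5 had enough UMIs to be tested after DPBS and 8 after papain, and besides Ift20 1 further gene passed the rule for a difference given below, Ift27, in the papain comparison (33.9 CPM in Papain WT from 53 UMIs, 13.1 CPM in Papain KO from 6, log2 ratio -1.37, -2.88 to -0.15).

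Regulatory T cells took the largest share in the papain-exposed WT lung. After papain they made up 1.80% of kept WT cells (exact 95% binomial interval 1.52 to 2.12) and 0.929% of KO cells (0.697 to 1.21). After DPBS the shares were 0.712% in WT (0.541 to 0.920) and 0.596% in KO (0.413 to 0.832). The interval of Papain WT lay above those of the other 3 libraries, which overlapped one another. The log2 ratio of Papain WT to DPBS WT was 1.34 (0.89 to 1.80), and that of Papain KO to DPBS KO was 0.64 (-0.01 to 1.31). For KO over WT it was -0.95 (-1.44 to -0.49) after papain and -0.26 (-0.91 to 0.38) after DPBS.

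Among CD4 T cells Papain WT was again highest. Regulatory T cells were 7.11% of 816, 6.76% of 503, 14.1% of 1019 and 9.14% of 580 CD4 T cells. A Foxp3 UMI is found more readily in a deeper cell, so the share was also taken after each cell had been thinned to 2000 UMIs, where it was 3.94%, 4.01%, 8.58% and 5.17%. Papain KO over Papain WT gave -0.63 (log2, -1.11 to -0.17) with all UMIs and -0.73 (-1.38 to -0.12) thinned to 2000, but its interval reached 0 when cells were thinned to 1000 (-0.61, -1.46 to 0.17). It also reached 0 when cells with a Mki67 or Top2a UMI were left out, with 45 of 512 CD4 T cells in Papain KO and 91 of 836 in Papain WT (-0.31, -0.86 to 0.22). These shares are of cells captured in 1 library each, and the sort and the recovery of other cell types enter them.

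**Figure D1:**
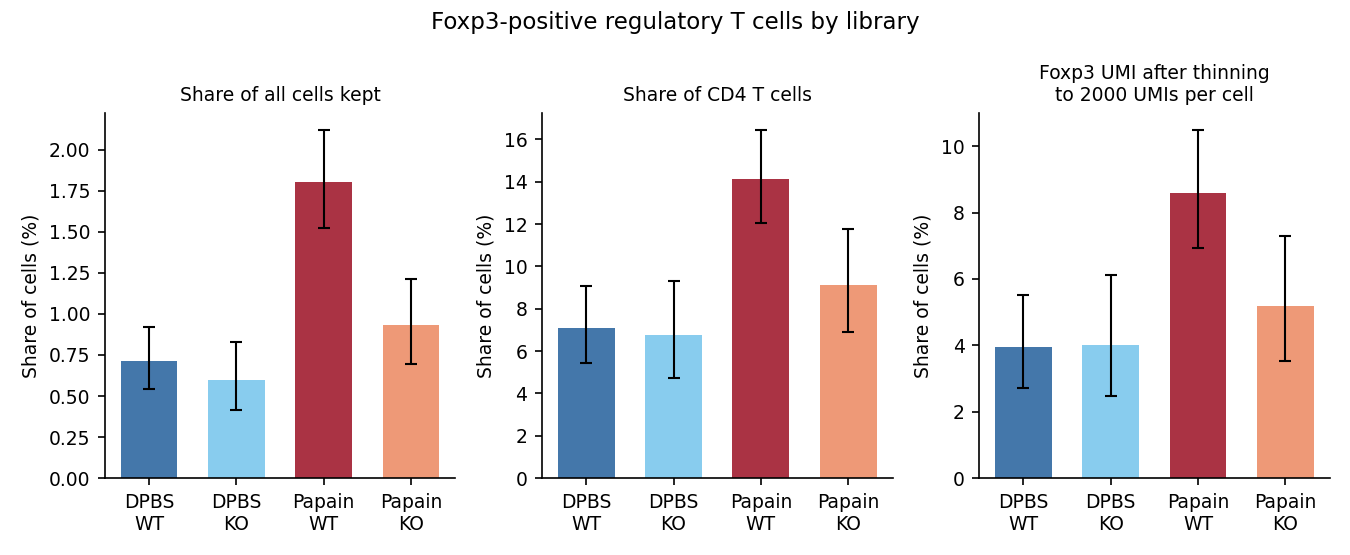
Share of Foxp3-positive regulatory T cells in each library, in percent of all cells kept (left), of CD4 T cells (middle) and of CD4 T cells with a Foxp3 UMI after thinning each cell to 2000 UMIs (right). Bars are 1 library each and error bars are exact 95% binomial intervals, which cover counting error only; Papain WT stands highest in all 3 panels, at 1.80%, 14.1% and 8.58%.

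What sets these cells apart from other CD4 T cells was tested across the libraries. UMIs were summed per library over the regulatory T cells and over the Foxp3-negative CD4 T cells (758, 469, 875 and 527 cells), and the 2 populations were compared with edgeR's quasi-likelihood test with the library as a block. The genes that had selected the cells were left out. Of 9531 genes tested, 304 (3.19%) were higher and 240 (2.52%) lower in regulatory T cells at a Benjamini-Hochberg adjusted p under 0.05 and at least 2-fold. The 4 libraries belong to 4 different groups, so this spread is that of the difference over groups. The Foxp3-negative cells had to hold a Cd4 UMI, which the regulatory T cells did not, and can include regulatory T cells whose Foxp3 RNA was not captured.

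The core genes of regulatory T cells were higher together. Of 24 listed core genes tested, 19 were higher and none lower, with a median log2 fold of 1.86 against -0.02 over all genes tested. Il2ra, which encodes CD25, stood at 87.0, 150, 319 and 184 CPM, against 4.92, 2.66, 15.9 and 8.20 CPM in Foxp3-negative CD4 T cells (log2 fold 4.34 ± 0.19 SE, edgeR adjusted p = 7.06e-09). Ikzf2 was higher by 4.05 ± 0.13 on the log2 scale (edgeR adjusted p = 2.62e-10) and Lrrc32, whose product GARP holds latent TGF-β at the cell surface, by 4.70 ± 0.20 (edgeR adjusted p = 6.94e-09). Both were higher in 4 of 4 libraries. The costimulatory receptors of the tumour necrosis factor family followed, with log2 folds of 4.17 ± 0.22 for Tnfrsf9 (4-1BB), 3.16 ± 0.21 for Tnfrsf4 (OX40) and 1.75 ± 0.12 for Tnfrsf18 (GITR).

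Suppressive and effector molecules were also higher, 11 of 14 tested and none lower. Ctla4 reached 421, 622, 974 and 786 CPM in the 4 libraries, against 79.2, 41.4, 129 and 65.9 CPM in Foxp3-negative CD4 T cells (3.00 ± 0.18, edgeR adjusted p = 1.33e-07). Il10 was higher by 3.92 ± 0.33, Areg by 2.53 ± 0.37, Ebi3, a subunit of IL-35 and IL-27, by 2.13 ± 0.32, and Pdcd1 (PD-1) by 1.90 ± 0.23. Il12a, the partner of Ebi3 in IL-35, had no UMI in any regulatory T cell. Gzmb (granzyme B) passed as well, at 2.33 ± 0.55, but was higher in only 3 of 4 libraries, since DPBS WT held 55.9 CPM in regulatory T cells and 56.1 CPM in the others.

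Genes of tissue and activated regulatory T cells held the largest difference among the genes named here. Klrg1, an inhibitory receptor for cadherins, stood at 124, 103, 216 and 191 CPM against 3.05, 5.32, 4.78 and 0.724 CPM, a log2 fold of 5.36 ± 0.30 (edgeR adjusted p = 7.78e-08). Il1rl1 was higher by 3.12 ± 0.37 and Itgae, the CD103 chain that binds E-cadherin on epithelium, by 4.08 ± 0.27. Of the 20 genes tested on that list, 13 were higher and none lower. Chemokine receptors for inflamed or barrier tissue were among 7 of 20 homing genes that were higher, such as Ccr8 (2.28 ± 0.43), Ccr2 (1.85 ± 0.20) and Ccr4 (1.44 ± 0.34). Outside the lists, 3 genes also stood among the 12 furthest: Lamc1, a laminin chain, at 3.54 ± 0.24, Hopx, a homeodomain cofactor, at 3.18 ± 0.19, and Gbp3, an interferon-inducible GTPase, at 2.54 ± 0.20.

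Genes of naive and circulating T cells were lower. Of 14 central genes tested, 7 were lower and none higher (median log2 fold -1.09). Igfbp4 stood at 74.6, 56.3, 27.5 and 63.5 CPM in regulatory T cells against 484, 635, 375 and 571 CPM (-3.46 ± 0.17), and Tcf7, which encodes the transcription factor TCF-1, was at -2.06 ± 0.16, Lef1 at -1.52 ± 0.12 and Bcl2 at -1.66 ± 0.23. Klf2 (-0.47 ± 0.11) and Il7r (-0.95 ± 0.13) of the same list had an edgeR adjusted p of 0.00938 and 0.000174 but were not past 2-fold, and Ccr7 and S1pr1 had an edgeR adjusted p of 0.24 and 0.108. Of 11 helper cytokines and regulators tested, 3 were higher, Maf, Rora and Ccr6, and 3 lower, Ifng (-1.84 ± 0.40), Il2 (-2.09 ± 0.51) and Tbx21. Mki67, a marker of dividing cells, was the single gene of 14 on the division list that passed, at 1.19 ± 0.25. None of 15 T cell receptor, 12 AKT and mTOR, 14 glycolysis or 16 tricarboxylic acid cycle genes was called in either direction.

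Among the 12 genes furthest below were H2-Aa (-3.11 ± 0.25), H2-Eb1 (-2.83 ± 0.35), H2-Ab1 (-2.80 ± 0.25) and Cd74 (-2.05 ± 0.23), which serve antigen presentation in dendritic and B cells, and Gzma (-3.78 ± 0.45), a granzyme of killer cells. Marker sums of dendritic and B cells were higher in the comparator in each library, but each set includes a gene named above. The 6 dendritic cell markers summed to 60.1 to 123 CPM in regulatory T cells and 390 to 450 CPM in Foxp3-negative CD4 T cells. Cd209a among them had no UMI in any regulatory T cell, and H2-Ab1 alone stood at 15.6 to 89.8 and 341 to 390 CPM. The 6 B cell markers summed to 754 to 1222 and 1251 to 1451 CPM, with Cd74 alone at 160 to 526 and 1040 to 1173 CPM. The 6 NK markers summed to 0 to 29.0 CPM against 174 to 243 CPM outside Papain WT, where they were at 103 and 98.0 CPM. Their part in these differences was not tested. Pdlim4, a cytoskeletal adaptor, was the lowest of all at -4.82 ± 0.34, with Pde3b, a phosphodiesterase, at -3.15 ± 0.24, Tdrp at -3.09 ± 0.28, Dapl1 at -3.02 ± 0.30, and the chemokine gene Ccl5 at -2.06 ± 0.40. When the comparator was limited to cells with a Cd44 or S100a4 UMI, 163 of 8580 genes tested were higher and 311 lower. Without Papain WT 227 of 9037 were higher and 114 lower.

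**Figure D2:**
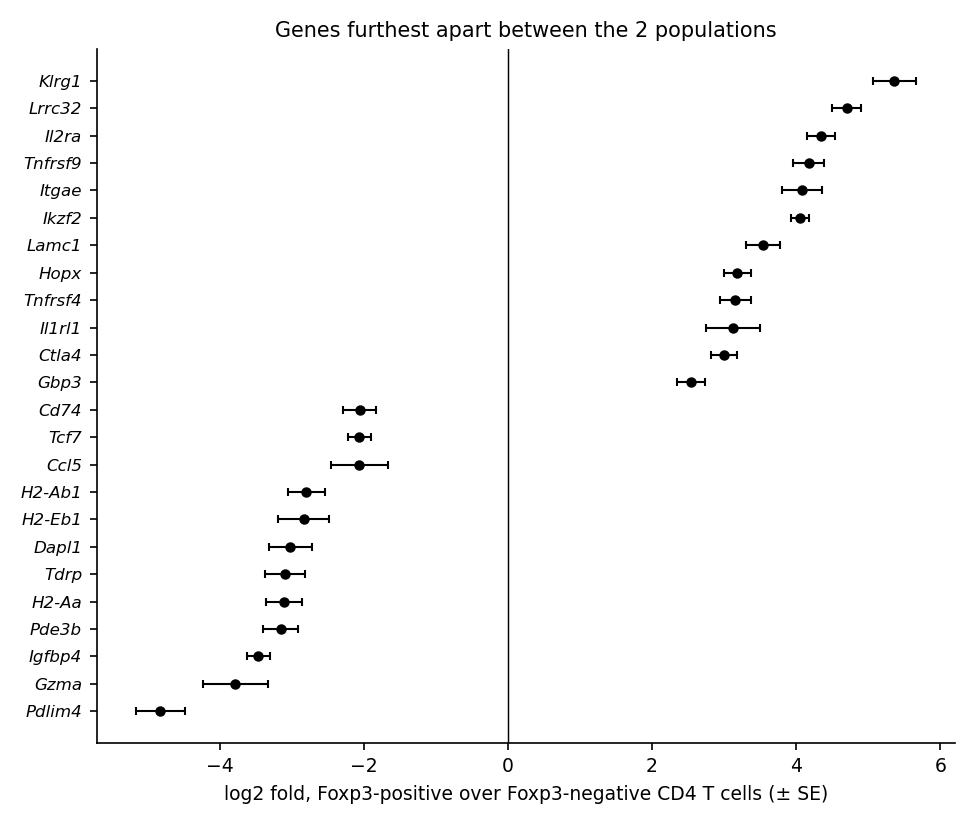
The 24 genes furthest apart between regulatory T cells and Foxp3-negative CD4 T cells, with at least 50 CPM in the higher population. The horizontal axis is the edgeR log2 fold over 4 libraries and the bars are its standard error; Klrg1 lies furthest right at 5.36 and Pdlim4 furthest left at -4.82.

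Between libraries, a gene was called where the ratio of its summed CPM passed 2-fold and the 95% counting interval excluded equality, among genes with at least 30 UMIs over the regulatory T cells of the 2 libraries. UMIs of 1 cell are not independent of each other, and these intervals do not include the spread between cells. In the bulk sum, a change in the number of cells of one kind and a change of RNA per cell cannot be told apart. Papain WT enters 2 of the 4 comparisons, and so does each other library, so the comparisons are not independent.

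Papain exposure in WT mice went with more RNA for effector and tissue genes. Of 6678 genes tested, 364 (5.45%) were higher in Papain WT than in DPBS WT and 103 (1.54%) lower, and without the Lyz2-rich cells 339 were higher and 71 lower. Of 14 suppressive and effector genes 8 were higher and none lower, with a median log2 ratio of 1.48 against 0.14 over all genes tested. Of 20 tissue genes 9 were higher and none lower (median 0.82), and both counts were the same without the Lyz2-rich cells. In Foxp3-negative CD4 T cells, where 2.87% of 10367 genes tested were higher and 1.82% lower, 13 of 20 tissue genes were higher and none lower (median 1.26), and 6 of 14 suppressive and effector genes were higher and 1 lower (median 0.79). The difference between the populations was not tested.

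Il10 stood at 16.6, 25.0, 83.9 and 17.5 CPM, from 8, 8, 131 and 8 UMIs. Papain WT was high and the other 3 libraries had overlapping intervals. Papain WT over DPBS WT gave a log2 ratio of 2.34 (1.32 to 3.58). Cells with an Il10 UMI numbered 5 of 58, 2 of 34, 32 of 144 and 3 of 53, and 1 cell gave 13.7% of the UMIs in Papain WT. Lag3, an inhibitory receptor for MHC class II, went from 6.22 to 49.9 CPM (3.01, 1.41 to 5.31), Pdcd1 from 35.2 to 124 CPM (1.82, 1.10 to 2.63), and Fgl2, a secreted suppressive fibrinogen-like protein, from 33.2 to 115 CPM (1.79, 1.05 to 2.63). Lag3 was found in 3 of 58 cells of DPBS WT, with 1 UMI each, and 1 cell gave 25.6% of its UMIs in Papain WT. Gzmb went from 55.9 to 187 CPM (1.74, 1.17 to 2.37), in the same library in which NK markers were high.

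Il1rl1 (chromosome 1, 40429570 to 40465415, plus strand) stood at 47.7, 43.8, 182 and 105 CPM. Both papain libraries lay above both DPBS libraries, with non-overlapping intervals. The log2 ratio of papain to DPBS was 1.93 (1.32 to 2.61) in WT and 1.26 (0.38 to 2.24) in KO. Foxp3-negative CD4 T cells went from 1.02 to 38.5 CPM in WT and from 3.25 to 4.83 CPM in KO. Il2ra went from 87.0 to 319 CPM in WT regulatory T cells (1.87, 1.42 to 2.36) and Ctla4 from 421 to 974 CPM (1.21, 1.00 to 1.43). Of 18 homing genes 5 were higher and none lower, with a median of 0.26 and 5 ratios below 0. Among those higher were Cxcr6 at 16.6 and 106 CPM (2.68, 1.67 to 3.92), Ccr2 at 55.9 and 173 CPM (1.63, 1.05 to 2.26) and Ccr8 at 2.07 CPM from 1 UMI and 22.4 CPM from 35 (3.43, 0.86 to 8.78). Bhlhe40, a transcription factor of activated T cells, was at 76.7 and 277 CPM (1.85, 1.37 to 2.38).

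The reverse held for part of the central genes. Bcl2 (chromosome 1, 106538178 to 106714274, minus strand), which encodes a survival protein, stood at 133 CPM in DPBS WT and 33.3 CPM in Papain WT (-1.99, -2.55 to -1.44), and Igfbp4 at 74.6 and 27.5 CPM (-1.44, -2.11 to -0.76). In all, 3 of 13 central genes were lower and none higher, with a median of -0.55, and 12 of the 13 had a ratio below 0. In Foxp3-negative CD4 T cells the median of that list was -0.05.

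The 6 highest genes of this comparison by the near end of the interval were Cxcl2, S100a9, Cd63, S100a8, Apoe and Il1b, which are known from macrophages and neutrophils. Cxcl2 held 486 UMIs in Papain WT, in 32 of 144 cells, and 5 in DPBS WT. Without the Lyz2-rich cells Cd63 (log2 ratio 4.39) and Apoe (4.08) were at -0.12 and 0.29 and no longer called, while Cxcl2 (4.91) was at 4.23, S100a9 (5.80) at 5.76, S100a8 (4.39) at 5.36 and Il1b (3.62) at 3.50. These 4 genes were higher in Foxp3-negative CD4 T cells too, with ratios of 1.52, 2.23, 1.92 and 1.21 in the same order. The 6 neutrophil markers summed there to 142 CPM in DPBS WT and 587 CPM in Papain WT. The source of this RNA was not tested. Of the 6 lowest, Bcl2 was the only one still called without those cells. Fn1 went from a ratio of -2.87 to -0.12 and Cd9 from -1.54 to -0.85, whereas Lpl, at -2.10 and -2.71, and Gm10036, at -2.36 and -2.42, lost the call without a smaller ratio. Fabp1 (-2.83) had no ratio left.

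In KO mice the same comparison rested on fewer cells, so fewer genes could be tested. Of 3564 genes tested, 89 (2.5%) were higher and 132 (3.7%) lower in Papain KO than in DPBS KO, and 85 and 82 without the Lyz2-rich cells. None of 8 suppressive genes was called, and 4 of 15 tissue genes were higher and none lower: Il1rl1, Gata3 at 113 and 254 CPM (1.17, 0.62 to 1.76), Maf at 122 and 274 CPM (1.17, 0.64 to 1.72) and Ahr at 21.9 and 76.7 CPM (1.81, 0.62 to 3.22). GATA3 controls ST2 in regulatory T cells, and AHR senses dietary and environmental ligands. Bcl2 was higher in Papain KO, at 78.2 and 173 CPM (1.15, 0.48 to 1.86). The 6 highest genes were H2-Eb1, with no UMI in DPBS KO and 38 in Papain KO, Hopx at 191 and 624 CPM (1.71, 1.31 to 2.13), Cd74, H2-Ab1, Ly6a at 141 and 392 CPM (1.48, 1.00 to 1.98) and Dusp2, a phosphatase of MAP kinases. H2-Ab1 went from a log2 ratio of 2.52 to -0.18 when a Cd4 UMI was required. The 6 lowest were Lyz2, Chil3, Ccl6, Alox5ap and Fcer1g, which are genes of myeloid cells, and Cdkn1c, of which Chil3 and Cdkn1c were still called without the Lyz2-rich cells.

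**Figure D3:**
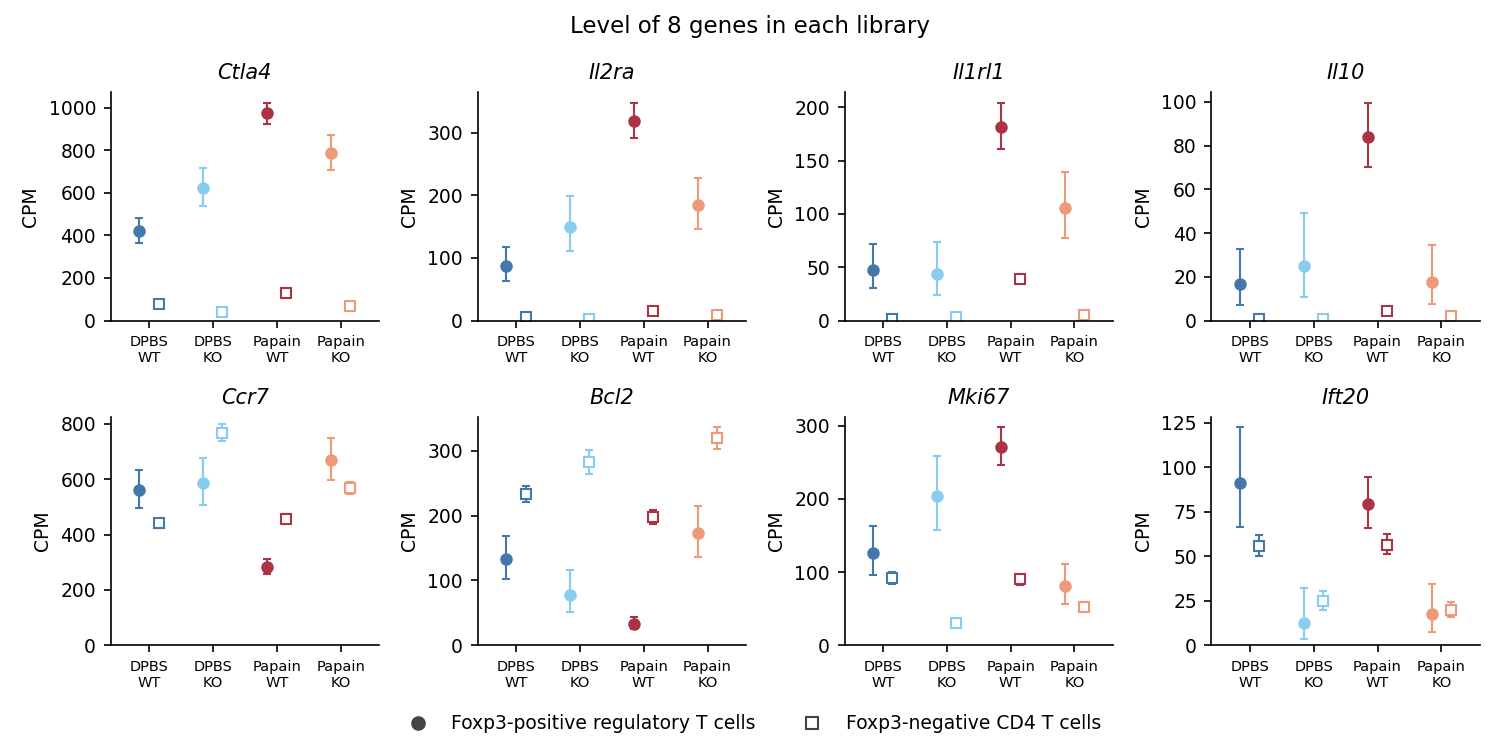
Level of 8 genes by library, in CPM of summed UMIs on linear axes from 0. Filled circles are regulatory T cells and open squares Foxp3-negative CD4 T cells, each point is 1 library, and bars are exact 95% Poisson intervals for counting error; Il10 is high in Papain WT only, at 83.9 CPM, and Bcl2 is lowest there, at 33.3 CPM.

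Loss of Ift20 was compared within papain-exposed mice. Of 6572 genes tested, 86 (1.31%) were higher and 408 (6.21%) lower in Papain KO than in Papain WT, with a median log2 ratio of -0.15. Without the Lyz2-rich cells, all 6 of which were in Papain WT, 82 were higher and 302 lower, and 271 of the 408 were among these. The largest shares of called genes were in 3 lists: effector molecules and division genes, which were lower in KO, and central genes, which were higher.

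In Papain KO 7 of 14 suppressive and effector genes were lower and none higher, with a median of -0.98, and the count was again 7 without the Lyz2-rich cells. For Il10 the ratio was -2.26 (-3.50 to -1.24), and in Papain KO 6 of the 8 UMIs came from 1 cell. Fgl2 was at 115 and 28.5 CPM (-2.01, -2.95 to -1.20), Gzmb at 187 and 61.3 CPM (-1.61, -2.22 to -1.05), Pdcd1 at 124 and 57.0 CPM (-1.13, -1.78 to -0.53) and Ebi3 at 41.0 CPM from 64 UMIs and 10.95 CPM from 5 (-1.90, -3.57 to -0.61). Lag3 and Entpd1, the ectonucleotidase CD39, were the other two. Ctla4, at 974 and 786 CPM, was not past 2-fold, nor was Areg, at 270 and 276 CPM. In Foxp3-negative CD4 T cells, where 4.76% of 10086 genes tested were lower and 0.714% higher in Papain KO, 6 of 14 genes of this list were lower and 1 higher, with a median of -1.01.

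Tissue genes were lower in 5 of 20 and higher in none, with a median of -0.52. Il10, Pparg, Cxcr6, Irf4 and Nfil3 were called, and the number was 4 without the Lyz2-rich cells. Pparg, a lipid-sensing factor of tissue regulatory T cells that macrophages also use, was at 23.7 CPM in Papain WT and 2.19 CPM from 1 UMI in Papain KO. Il1rl1 was at 182 and 105 CPM, Gata3 at 347 and 254, Klrg1 at 216 and 191 and Icos, a costimulatory receptor, at 560 and 589 CPM, none past 2-fold. In Foxp3-negative CD4 T cells 10 of 20 were lower and none higher, with a median of -1.09.

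Central genes were higher. In Papain KO 6 of 12 were higher and none lower, with a median log2 ratio of 1.03 against -0.15 over all genes, and all 12 had a ratio above 0. The called genes were Bcl2, Bach2, Klf2, Igfbp4, Ccr7 and Satb1, and there were again 6 without the Lyz2-rich cells. Bcl2 stood at 33.3 CPM (WT) and 173 CPM (KO) after papain (2.38, 1.85 to 2.91), against 133 and 78.2 CPM in DPBS WT and DPBS KO. Ccr7 was at 284 and 670 CPM (1.24, 1.03 to 1.45), Klf2, a transcription factor of resting T cells, at 745 and 1684 CPM (1.18, 1.04 to 1.31), Satb1, a chromatin organiser, at 170 and 377 CPM (1.15, 0.87 to 1.43), and Bach2, a repressor of effector genes, at 12.8 and 50.4 CPM (1.98, 1.05 to 2.92). For these genes Papain WT was the low library, and Papain KO was above both DPBS libraries for each of them except Igfbp4, at 63.5 CPM against 74.6 in DPBS WT. In Foxp3-negative CD4 T cells none of 14 was called in the same comparison, with a median of 0.15, and Bcl2 had a ratio of 0.69 there and Ccr7 of 0.31. The difference between the populations was not tested.

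**Figure D4:**
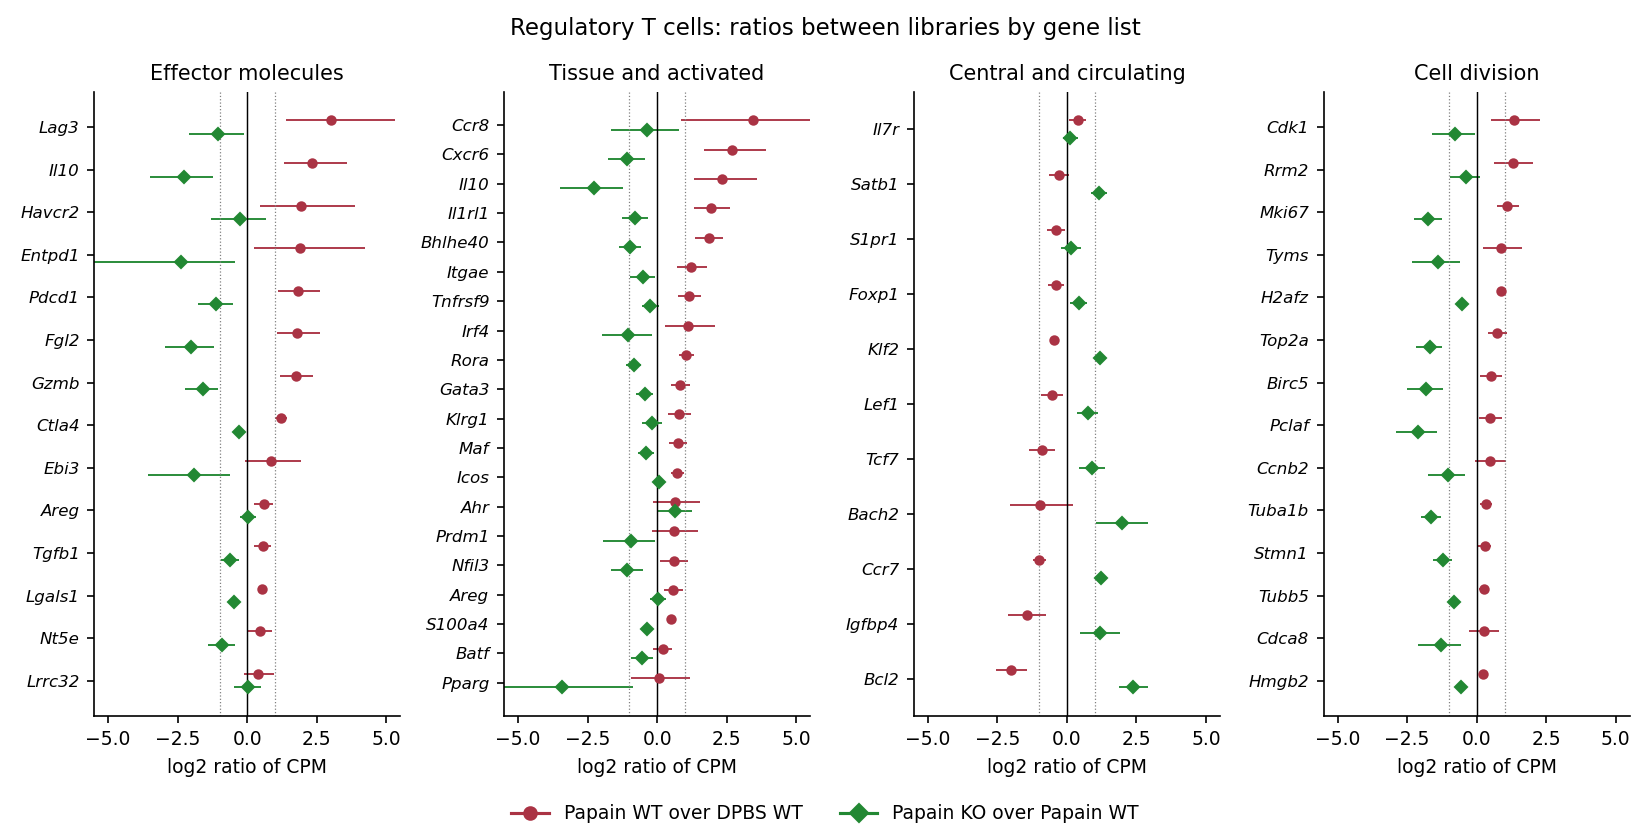
Log2 ratios of summed CPM for tested genes of 4 lists in regulatory T cells, Papain WT over DPBS WT (red circles) and Papain KO over Papain WT (green diamonds), with exact 95% counting intervals, some running past the axis. Dotted lines mark 2-fold; both comparisons use the same Papain WT library, so opposite signs are partly built in, and the central genes lie right of 0 in green with Bcl2 at 2.38.

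Division genes were lower in Papain KO. Of 14 tested, 9 were lower and none higher, with a median of -1.25 and a median of -0.03 in Foxp3-negative CD4 T cells. Mki67 stood at 126, 203, 271 and 81.0 CPM (KO to WT after papain -1.74, -2.27 to -1.26), and Top2a, a topoisomerase of dividing cells, at 182, 219, 304 and 94.2 CPM (-1.69, -2.18 to -1.24). These UMIs lay in a part of the cells. A Mki67 or Top2a UMI was found in 20 of 58 (34.5%), 11 of 34 (32.4%), 53 of 144 (36.8%) and 8 of 53 (15.1%, exact binomial interval 6.75 to 27.6) cells, and in 14.0%, 21.2%, 20.1% and 7.55% after thinning to 2000 UMIs. The interval of Papain KO lay below that of Papain WT (28.9 to 45.2) and overlapped those of both DPBS libraries. Against DPBS KO, 7 of 14 division genes were lower in Papain KO as well. In Foxp3-negative CD4 T cells 5 of 14 were higher and 0 lower in that comparison (median 0.87). Of 9248 genes tested in them, 1.96% were higher and 2.51% lower. Those cells also differed after DPBS, with 10 of 14 lower and 0 higher in KO than in WT (median -1.61). There 3.82% of 9766 genes tested were lower and 0.778% higher. The difference between the populations was not tested. In Papain KO 1 cell held 64.9% of the Mki67 UMIs, and in Papain WT 1 cell held 25%. When cells with a Mki67 or Top2a UMI were left out, Stmn1, Cdca8, Birc5 and Tuba1b had ratios above 0 in Papain KO against Papain WT.

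Outside the lists, Ly6c1, at 27.5 and 131 CPM (2.26, 1.67 to 2.85), Sox4, at 7.04 and 46.0 CPM (2.71, 1.59 to 3.91), Tnfsf8, which encodes CD30 ligand, at 17.9 and 76.7 CPM (2.10, 1.34 to 2.87), Tubb2a, a tubulin, at 26.9 and 94.2 CPM (1.81, 1.16 to 2.46), and Gm10036 completed the 6 highest in Papain KO beside Bcl2. Tubb2a was also the highest gene of KO against WT after DPBS, with 219 CPM in DPBS KO and 20.7 in DPBS WT (3.40, 2.44 to 4.52). It was thus higher in both KO libraries. The 6 lowest were Chil3, Ccl6, Nkg7, Cd63, Lyz2 and S100a8. Nkg7, a granule protein of killer cells, had 144 UMIs in 14 cells of Papain WT and none in Papain KO, at least 14.0-fold lower when 3 UMIs are taken as the floor of that library. Ccl6, Cd63 and Lyz2 were no longer called without the Lyz2-rich cells, while Chil3 went from -6.06 to -1.86.

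After DPBS the KO and WT libraries were closer on the lists. Of 3674 genes tested, 93 (2.53%) were higher and 83 (2.26%) lower in DPBS KO, and these libraries held only 34 and 58 regulatory T cells. None of 11 central genes was called (median 0.07), 1 of 8 suppressive genes was lower, Nt5e, which encodes the ectonucleotidase CD73 (124 and 59.4 CPM, -1.06, -1.89 to -0.30), and 1 of 13 tissue genes was higher, Bhlhe40 (76.7 and 210 CPM, 1.45, 0.85 to 2.07). Of the homing receptors Ccr4 and Gpr183 were lower, and Ccr4 had a ratio of 0.045 when cells with a Mki67 or Top2a UMI were left out. Besides Ift20, the lowest genes were Nav2 (80.8 and 3.13 CPM), Ccl5 (74.6 and 6.26 CPM), Lpl, Chka and Crip2. Without the Lyz2-rich cells Lpl went from -1.95 to -0.34 and Chka from -2.44 to -1.80, and neither was called. Hilpda, a lipid droplet protein, was among the highest, at 68.4 and 222 CPM (1.70, 1.08 to 2.34), with Rrm2, Rpa2 and Unc93b1, of which Unc93b1 went from 1.74 to 0.25 and was no longer called without the Lyz2-rich cells. None of the tested T cell receptor, AKT and mTOR, glycolysis or tricarboxylic acid cycle genes was called in either KO to WT comparison. Of 12 AKT and mTOR genes only 6 were tested after DPBS and 10 after papain. For glycolysis the numbers tested were 10 and 13, and for the tricarboxylic acid cycle 16 in both. For T cell receptor genes the medians were -0.11 over 15 genes after DPBS and -0.04 over 16 after papain.

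The regulatory T cells were not uniform within a library. The UMIs of the central list in a cell had a median of 30.8, 48.8, 20.0 and 52.9 per 10000. The tissue list had medians of 22.0, 16.7, 55.8 and 16.1 per 10000 with a wide range in each, from 0 to 145 in Papain KO and from 1.73 to 179 in Papain WT. In Papain KO the upper quartile of the tissue list was 64.3, so cells with the tissue pattern were present there although the median cell was low.

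**Figure D5:**
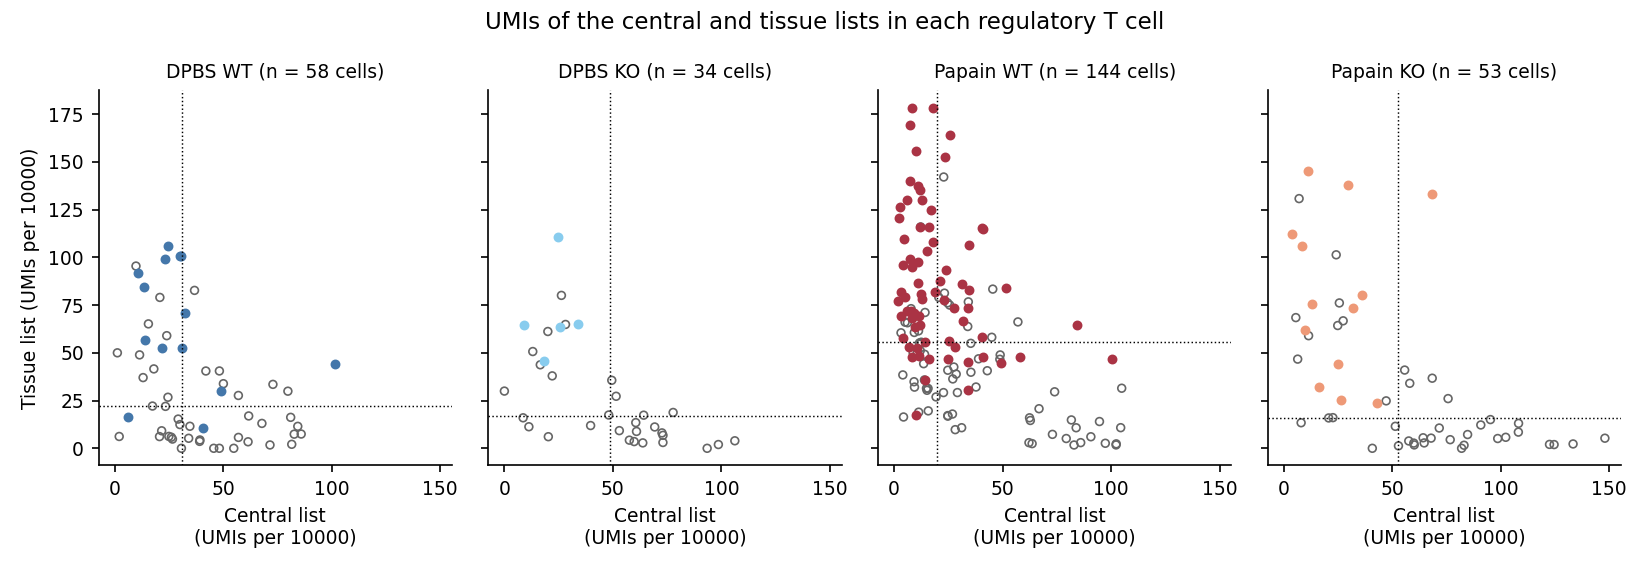
UMIs of the central list (horizontal axis) and of the tissue list (vertical axis) per 10000 UMIs in each of the 289 cells, by library. Filled points are cells with an Il1rl1 UMI, a gene of the tissue list, and dotted lines are medians; the Papain WT median lies at 20.0 and 55.8, that of Papain KO at 52.9 and 16.1.

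Single genes were also counted as shares of cells. An Il1rl1 UMI was found in 24.1%, 14.7%, 48.6% and 24.5% of cells, and in 8.77%, 6.06%, 30.6% and 13.2% after thinning to 2000 UMIs, against 0.132%, 0.429%, 3.79% and 0.380% of Foxp3-negative CD4 T cells thinned alike. Klrg1 was found in 20.7%, 17.6%, 45.1% and 24.5%. The exact interval of Papain KO was 13.8 to 38.3 for both genes. That of Papain WT lay above it for Il1rl1 (40.2 to 57.1) and overlapped its upper end for Klrg1 (36.8 to 53.6). After thinning the intervals of Papain WT and Papain KO overlapped for both genes, at 23.2 to 38.8 and 5.48 to 25.3 for Il1rl1. Cells with an Il1rl1 or a Klrg1 UMI were 29.3%, 23.5%, 59.7% and 30.2%, highest in Papain WT.

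Cells with and without an Il1rl1 UMI also differed in other genes within a library. Areg stood at 440 CPM in the 70 Papain WT cells with Il1rl1 and 148 CPM in the 74 without it (log2 ratio 1.57, 1.27 to 1.88), and at 655 CPM in 13 and 70.9 CPM in 40 cells of Papain KO (3.21, 2.52 to 3.96). Its ratio was 2.42 (1.64 to 3.23) in DPBS KO, but 0.36 in DPBS WT with an interval that spanned 0 (-0.32 to 1.01). In DPBS KO the ratio rested on 5 cells with Il1rl1, which held 40 Areg UMIs, and 29 without, which held 23. A single DPBS KO cell held 33 Areg UMIs. In DPBS WT it rested on 14 and 44 cells. Gata3 was higher with Il1rl1 in all 4 libraries, by 0.77, 0.97, 1.48 and 1.81, although the interval reached below 0, to -0.11, in DPBS KO. Tnfrsf9 was higher by 2.88, 3.87, 1.82 and 1.18. For Ccr7 the log2 ratios were -2.68, -3.30, -1.58 and -2.42. Bcl2 had 2, 0, 12 and 1 UMIs in cells with Il1rl1 and 62, 25, 40 and 78 in cells without it. In cells without an Il1rl1 UMI, Bcl2 after papain was at 44.1 CPM (WT) and 263 CPM (KO). These cells were not matched in other genes, with Mki67 at 410 and 84.4 CPM and Klrg1 at 89.3 and 64.1 CPM. Cells with an Il1rl1 UMI were the deeper ones in each library, with medians of 7885.5 to 15656 UMIs against 5343.5 to 6155.5, and the part of depth in these ratios was not tested. Innate lymphoid cells of type 2 share Il1rl1, Gata3 and Areg. The 6 markers listed for them, these 3 included, summed to 653, 557, 1106 and 964 CPM in regulatory T cells and to 459, 595, 848 and 657 CPM in Foxp3-negative CD4 T cells, and of the 6 Il13 alone had no UMI in any of the 289 cells. Their part in the values of the shared genes was not tested.

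Of the helper cytokines, Il5, Il13 and Il21 had no UMI in these cells, Il4 had 1, and Il17a had 12, all in Papain WT. Tnf and Ifng, which encode inflammatory cytokines, were called in both comparisons with Papain WT. Tnf had 5, 11, 157 and 5 UMIs, with 135 of the 157 in 1 cell, and its log2 ratio of Papain WT to DPBS WT went from 3.28 to 0.38 without the Lyz2-rich cells. Ifng had 1, 2, 31 and 1 UMIs, with 20 of the 31 in 1 cell, and its ratio was 3.26 (0.67 to 8.61).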

How the data were processed

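Matrices of raw UMI counts per gene and cell were deposited by the authors, 1 per library; the submitters' processing notes name Cell Ranger and mm10. The cells and gene lists were chosen with earlier results of these data known. The filter of more than 200 genes and under 15% mitochondrial UMIs was stated by the study for another single-cell experiment. Foxp3-negative CD4 T cells held UMIs of Cd4 and CD3 and none of Foxp3, Cd8a, Cd8b1 or Cd79a. Levels are CPM of summed UMIs with exact Poisson intervals, ratios carry exact conditional binomial intervals and shares Clopper-Pearson intervals, all at 95% and for counting error only. Library totals were 53854420 to 75675956 UMIs. The comparison with Foxp3-negative CD4 T cells used edgeR 4.0.16 (R 4.3.3) with TMM factors, Benjamini-Hochberg adjustment and the library as block, and was tested on simulated data. Named genes were the 6 per direction and comparison whose near interval end lay farthest from equality, in at least 5 cells and without receptor or immunoglobulin segment genes, and for edgeR the 12 per direction with the largest folds at 50 CPM or more, beside the lists. Scrublet marked 9 of the 289 cells as doublets, and they were kept. Alternatives were other definitions of the cells, depth thinning, filters, DESeq2 1.42.0 and leaving out each library. Some listed genes stayed in their lists' counts and sums and are not reported here by themselves.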

Additional observations from a re-analysis of the deposited data

Results flagged for a closer look

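Bcl2 in regulatory T cells went in opposite directions with papain in the 2 genotypes. The log2 ratio of papain to DPBS was -1.99 in WT and 1.15 in KO. Mki67 did the reverse, at 1.10 in WT and -1.33 in KO. A single cell held 25% of the Mki67 UMIs in Papain WT, and another held 64.9% in Papain KO. Cells with a Mki67 UMI were 20.7% in DPBS WT (11.2 to 33.4) and 26.4% in Papain WT (19.4 to 34.4). In DPBS KO they were 20.6% (8.70 to 37.9) and in Papain KO 11.3% (4.27 to 23.0). These exact intervals overlapped within each genotype. With 1 library per group the difference between the genotypes was not tested for either gene.

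Among CD8 T cells, which were outside the selected cells, 4.05% held a Foxp3 UMI in Papain WT, against 1.02%, 1.03% and 1.03% in DPBS WT, DPBS KO and Papain KO. These were 35 of 865 cells, with an exact interval of 2.83 to 5.58. At most 0.209% of B cells held a Foxp3 UMI.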

How the results depend on the processing

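With at least 2 Foxp3 UMIs required, the log2 ratio of Papain WT to DPBS WT was 1.92 for the share of kept cells and 1.58 for the share of CD4 T cells, and that of KO to WT after DPBS turned from -0.26 to 0.36 (-0.47 to 1.17) and from -0.07 to 0.51 (-0.31 to 1.33). Regulatory T cells with a Mki67 or Top2a UMI were also left out of the count, while the denominator stayed at all kept cells. The ratio of Papain KO to Papain WT was then -0.53 (-1.08 to 0.0021) for the share of kept cells, and that of Papain KO to DPBS KO was 0.97 (0.21 to 1.76). With a minimum of 10 UMIs over the pair, 194 genes were higher and 152 lower in KO against WT after DPBS, 153 were higher after papain, 201 were lower in Papain WT against DPBS WT, and 161 were higher and 279 lower in Papain KO against DPBS KO. With means over cells the counts were 141 higher and 171 lower for KO against WT after DPBS, 604 higher in Papain WT against DPBS WT and 165 higher in Papain KO against DPBS KO. Without cells holding a Mki67 or Top2a UMI, 52 genes were lower in KO against WT after DPBS and 56 in Papain WT against DPBS WT. In Papain KO against DPBS KO, 69 were lower with Cd4 required and 82 without the Lyz2-rich cells, a setting chosen after seeing the data.

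In the edgeR comparison, 163 of 8580 genes tested were higher with the Cd44 or S100a4 comparator. The lower genes numbered 147 of 8696 tested without dividing cells and 133 of 5869 after thinning. With no filter they numbered 380 of 17010, and by DESeq2 157 of 9531, against 240 of 9531 in the main run. Part of the change in these counts thus goes with the number tested. Leaving out 1 library gave 227 to 320 higher and 114 to 266 lower, the fewest in both directions without Papain WT, where 9037 genes were tested.

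Some genes reversed. Without dividing cells Ccr4 was at 0.045 (KO against WT after DPBS), Cdca8 at 2.04, Birc5 at 1.04, Stmn1 at 0.92 and Tuba1b at 0.017 (after papain), and Fabp1 at 0.95 (papain against DPBS in WT). With 2 Foxp3 UMIs Gpr83 was at -0.72 (KO against WT after papain), and Lpl at 2.96, Fn1 at 1.95 and Cd9 at 1.62 (papain against DPBS in WT), where Cd63 was at -0.12 without Lyz2-rich cells and Egr1 at -0.030 without doublets. Crip2 was at 0.070 with means over cells, and H2-Ab1 at -0.18 with Cd4 required. The cause was not tested. Of 135 called ratios between libraries 39 kept their call in all alternatives that gave them a value, and of 65 edgeR genes 42. A gene without a value in an alternative was not counted as lost there, so these are upper counts. Without dividing cells 69 ratios kept their call, 41 were weaker and 6 reversed, and the rest had no value. After thinning 51 edgeR genes kept their call and 1 was weaker, and the rest had no value. The lower UMI minimum was not among the alternatives for single ratios. No paired analysis was possible because, between groups, each has 1 library; the library block of the edgeR comparison pairs 2 populations within a library. Precision is limited by 34 to 144 cells per library.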
